A study of Rattus norvegicus with 2 samples.

Results

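Enzymes that build, lengthen and desaturate fatty acids were followed at the RNA level in rat oligodendrocyte precursor cells differentiated after Hsc70 siRNA. Their 10 genes come from a table with 18049 gene rows. The genes were chosen by symbol: Acly, Acaca and Fasn for synthesis, Elovl1, Elovl5, Elovl6 and Elovl7 for elongation, and Scd2, Fads1 and Fads2 for desaturation. The siHsc70 cells had received an siRNA against Hsc70, a constitutive HSP70 chaperone encoded by Hspa8, and the siSCR cells a scrambled siRNA. Both came from wild-type rat pups aged P2-P4, whose strain is not given in the labels. Oligodendrocyte precursor cells (OPCs) were taken from cortex by immunopanning on plates coated with antibodies against GalC and A2B5, and were electroporated with the siRNA. Both groups were then differentiated with 60 nM of the thyroid hormone T3 to day 2, without PDGF-AA, bFGF or NT3, in a medium that per the labels held insulin and biotin. There was 1 library per group, with a total estimated count of 18130817 for siHsc70 and 19085626 for siSCR, so the values below compare these libraries and no test between the groups could be made.

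Fatty acid synthesis starts in the cytosol, where ATP-citrate lyase (Acly) makes acetyl-CoA, acetyl-CoA carboxylase (Acaca, a biotin enzyme) converts it to malonyl-CoA, and fatty acid synthase (Fasn) joins these units into palmitate. Elongases of the ELOVL family lengthen fatty acids in the endoplasmic reticulum, stearoyl-CoA desaturases make monounsaturated ones, and the FADS enzymes act on polyunsaturated ones. Myelin is rich in lipid, and its galactolipids carry saturated and monounsaturated chains of very long length. Many genes of this pathway are known targets of the SREBP transcription factors.

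The synthesis genes stood lower in siHsc70, whereas the abundant desaturase and elongase genes differed little. Fasn was 1.74-fold lower, Acaca 1.51-fold lower and Acly 1.27-fold lower, and the low-level elongase gene Elovl7 was 2.61-fold lower. Scd2, the most abundant of the 10, was at nearly the same level in both libraries, and Fads1 and Elovl5 were 1.14-fold and 1.11-fold higher in CPM (counts scaled to one library total with TMM factors). In the deposited TPM, where the median of all measured genes itself shifted to -0.13 (log2), Fads1 was still higher in siHsc70 but Elovl5 was lower.

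Of the 10 genes, 9 were measured, meaning that they averaged at least 1 CPM over the libraries, and Elovl6 was not. Differences are given as log2(CPM + 1) in siHsc70 minus siSCR, a scale that understates changes of low genes. By this measure 0 of the 9 passed a 2-fold rule (a difference of 1 or more) in either direction. Of all 13518 measured genes, 5.14% passed it downwards and 2.29% upwards in siHsc70. At such shares a set of 9 genes can easily hold no call, so the members are not set apart from other genes by this count. Elovl7, at the edge of the rule, passed it in 5 alternatives, given with that gene. At least 1.5-fold lower were 3 of the 9 (Elovl7, Fasn and Acaca), against 12% of all measured genes, and 0 were at least 1.5-fold higher, against 9.65%. The median of the 9 was -0.15, beside -0.0034 for all measured genes. With the deposited TPM all genes split into 795 lower and 189 higher at 2-fold, in place of 695 and 310, and into 2062 and 868 at 1.5-fold, in place of 1626 and 1304. Folds of single genes below are ratios of normalised counts without a pseudocount. Their 95% exact (Clopper-Pearson) intervals cover counting error only. They leave out the spread among cultures, and PCR copies of a molecule are not independent of each other.

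**Figure D1:**
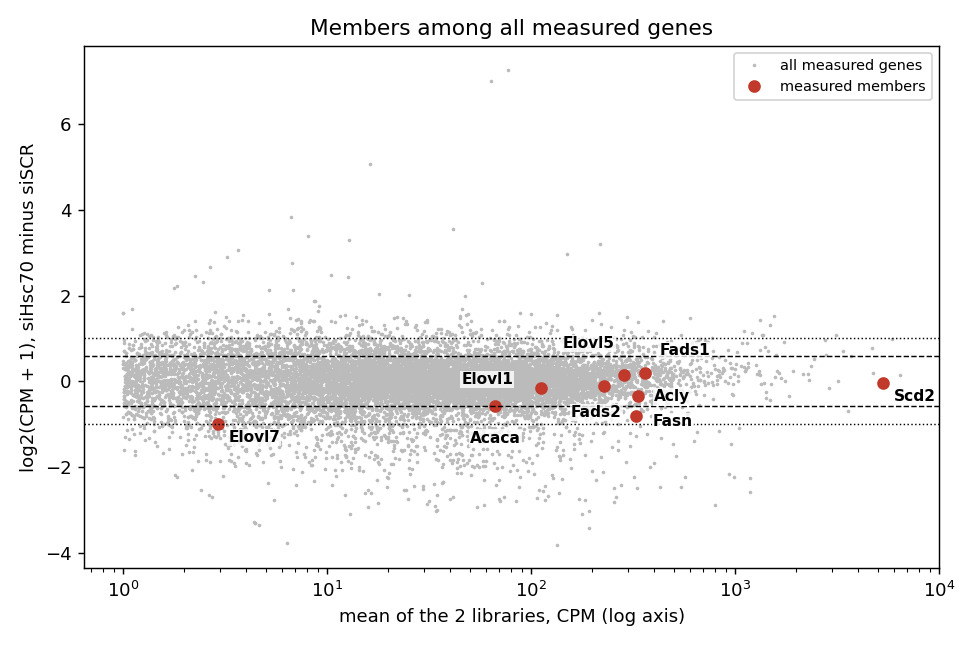
Each grey point is 1 of the 13518 measured genes and each red point 1 of the 9 measured members, by the mean CPM of both libraries (x, log axis) and the difference in log2(CPM + 1), siHsc70 minus siSCR (y). Dashed lines mark 1.5-fold and dotted lines 2-fold, and Elovl7, Fasn and Acaca lie on or below the lower dashed line.

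In the siHsc70 library Hspa8 was at 507 CPM, against 1399 CPM in siSCR (2.76-fold lower, 2.69 to 2.83). A near-identical pseudogene row, Hspa8-ps25, may take part of its reads. Oligodendrocyte markers were far lower in the same library: 9 of 10 passed the 2-fold rule downwards, against 5.14% of all measured genes. Mog was the exception, at -0.019. The summed level of the 10 was 1202 CPM in siHsc70 against 6540 CPM in siSCR. Of 8 OPC markers, 4 were at least 2-fold lower, Tnr furthest (14.8-fold), while 1, Olig1, was higher (1.13-fold). Their sums were 3636 CPM in siHsc70 and 4746 CPM in siSCR. Of these, Ptprz1 took 1630 CPM in siHsc70 and 2059 CPM in siSCR, and Olig1 1359 CPM in siHsc70 and 1207 CPM in siSCR. Astrocyte markers went both ways: of 8, 5 were higher by any amount and 3 lower, with a median of 0.19 (-0.0084 with the deposited TPM). Past the 2-fold rule were Gfap and Aqp4, both lower, and past 1.5-fold Aldh1l1 (1.61-fold) and S100b (1.52-fold), both higher. Their summed level, of which Gfap was 667 CPM in siHsc70 and 1416 CPM in siSCR, was 3257 CPM in siHsc70 and 3786 CPM in siSCR. Of 8 neuronal markers, 5 were at least 1.5-fold lower, against 12% of all measured genes, with Dcx and Elavl3 past 2-fold. Snap25 (2.00-fold) and Stmn2 (1.71-fold) were at least 1.5-fold higher, against 9.65% of all measured genes. Their sums, in which Map2 took 340 CPM in siHsc70 and 526 CPM in siSCR, were 502 CPM in siHsc70 and 745 CPM in siSCR. Of 5 measured fibroblast and mural markers, 2 (Col1a1 and Postn) were at least 2-fold higher, against 2.29% of all measured genes, and 1, Col3a1, was lower (-0.21). All 8 of that list summed to 107 CPM in siHsc70 and 43.3 CPM in siSCR, with Lum at 0 in siHsc70. Most of these sums was Col1a1, at 73.8 CPM in siHsc70 and 24.3 CPM in siSCR. The 5 microglial markers found summed to 10.3 CPM in siHsc70 and 6.24 CPM in siSCR, with Aif1 at a count of 1 in siHsc70 and 0 in siSCR. Most of these sums was Tmem119 (5.50 CPM in siHsc70, 3.38 in siSCR) and Cd68 (4.34 and 1.66). Csf1r and P2ry12, below 1 CPM in both libraries, were lower in siHsc70. The 5 endothelial markers found summed to 5.45 CPM in siHsc70 and 8.99 CPM in siSCR, with Cdh5 at 0 in siHsc70. The part of these cell types in the differences below was not tested, and in bulk RNA fewer cells of a type and less RNA per cell cannot be told apart.

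Acly, whose product supplies cytosolic acetyl-CoA, had an estimated count of 5296 in siHsc70 and 7200 in siSCR. That is 294 CPM in siHsc70 against 374 CPM in siSCR, a 1.27-fold lower level (1.23 to 1.32), and 21.4% of measured genes had a difference as low. Acaca, the gene of the committing step to malonyl-CoA, had a count of 958 in siHsc70 and 1548 in siSCR. Its 53.3 CPM in siHsc70 against 80.5 CPM in siSCR made it 1.51-fold lower (1.39 to 1.64). On the log2(CPM + 1) scale its difference of -0.59 was at the edge of the 1.5-fold rule. It fell short of that rule with upper-quartile scaling (-0.52), a pseudocount of 5 (-0.55) and the deposited FPKM (-0.56).

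Fasn, the multifunctional synthase itself, had a count of 4306 in siHsc70 and 8035 in siSCR. Its level was 239 CPM in siHsc70 against 418 CPM in siSCR, 1.74-fold lower (1.68 to 1.81). Its difference of -0.80 stayed between -0.93 and -0.74 over 6 scalings (TMM, total count, upper quartile, DESeq2 size factors, deposited TPM and deposited FPKM), and 7.66% of all measured genes had a difference as low. Summed, the 3 synthesis genes stood at 587 CPM in siHsc70 and 872 CPM in siSCR, 1.49-fold lower (1.45 to 1.52), and each of them was below 0 under all 6.

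The synthesis genes were not lower by the same factor. Per length, Fasn was at 0.382 of the TPM of Acly in siHsc70 and at 0.523 in siSCR. This ratio between genes does not depend on the scaling between libraries, and was 1.37-fold lower in siHsc70 (1.30 to 1.44, a counting interval from a normal approximation on the log scale, as for the ratios between genes that follow). Acaca relative to Fasn was 0.297 in siHsc70 and 0.257 in siSCR, 1.15-fold higher in siHsc70 (1.06 to 1.26). Relative to Scd2, Fasn was 1.70-fold lower in siHsc70 (1.63 to 1.76), Acaca 1.47-fold lower (1.35 to 1.59) and Acly 1.24-fold lower (1.19 to 1.28).

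**Figure D2:**
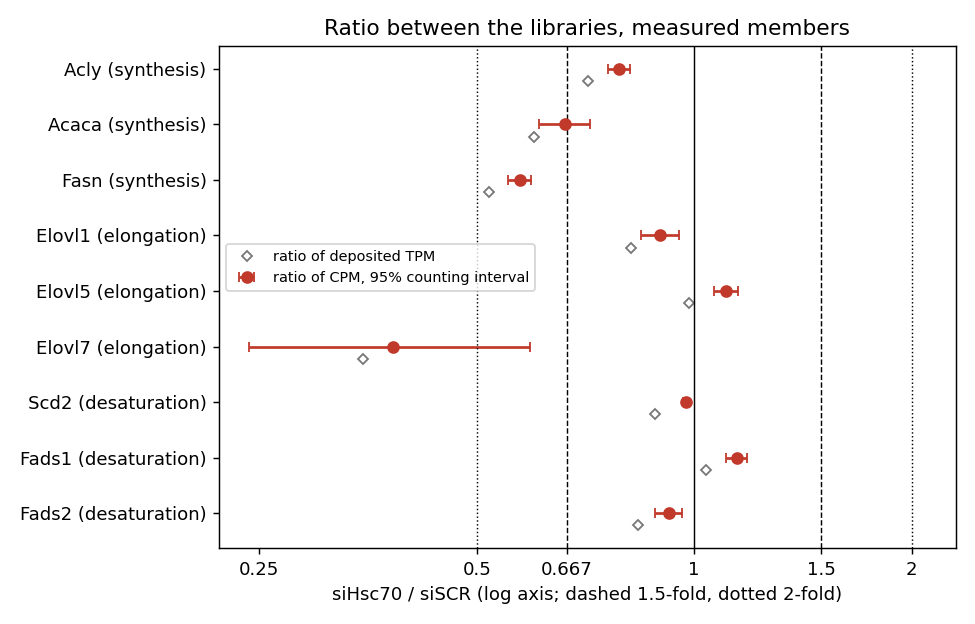
Red points show the siHsc70 to siSCR ratio of CPM for the 9 measured members (log axis) with 95% counting intervals, and open diamonds the ratio of deposited TPM. None of the 9 counting intervals reaches 1. Acly, Acaca, Fasn and Elovl7 lie furthest left of 1, and Scd2, Elovl1 and Fads2 lie nearer to it on the same side. Fads1 lies right of 1 on both scales, and Elovl5 lies right of 1 in CPM (1.11) and left of it in TPM (0.982).

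Scd2 encodes the main stearoyl-CoA desaturase of rodent brain, which makes oleate from stearate. Its estimated count was 94390 in siHsc70 and 103804 in siSCR, or 0.521% of all counts in siHsc70 and 0.544% in siSCR. At 5249 CPM in siHsc70 against 5395 CPM in siSCR it was 1.03-fold lower (1.02 to 1.04), and with upper-quartile scaling its difference was 0.023 in place of -0.040. By TPM it was the gene of rank 37 in siHsc70 and of rank 21 in siSCR among all 18049 rows. Its count is not a whole number, so reads may be shared with the related Scd, Scd3 and Scd4 rows, and with all 4 rows summed the level was 1.02-fold lower (1.01 to 1.03). Scd, another stearoyl-CoA desaturase, was at 206 CPM in siHsc70 against 159 CPM in siSCR, 1.29-fold higher (1.23 to 1.36). It made up 4.02% of the summed TPM of these 4 rows in siHsc70 and 3.10% in siSCR.

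Fads2 and Fads1 encode successive desaturases of polyunsaturated fatty acid synthesis, with an elongation between them that ELOVL5 can carry out. Fads2 was at 218 CPM in siHsc70 against 236 CPM in siSCR, 1.09-fold lower (1.04 to 1.13). Fads1 was at 386 CPM in siHsc70 against 337 CPM in siSCR, 1.14-fold higher (1.11 to 1.18). The TPM of Fads1 relative to Fads2 was 0.904 in siHsc70 and 0.727 in siSCR, 1.24-fold higher in siHsc70 (1.18 to 1.31).

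Fads3, a related gene that is not among the 10, differed more: it was at 65.5 CPM in siHsc70 against 41.8 CPM in siSCR, 1.57-fold higher (1.43 to 1.71). In the RefSeq gene order of the rat (assembly GRCr8), Fads3, Fads2 and Fads1 are consecutive protein-coding genes. Their differences were 0.63, -0.12 and 0.19, so these neighbours did not share a direction. That of Fads2 was below 0 under all 6 scalings, at -0.055 under upper-quartile scaling and -0.26 in TPM. The gene after Fads1 is Fen1, a DNA repair and replication nuclease, at 19.3 CPM in siHsc70 and 19.0 CPM in siSCR.

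Elovl5, an elongase of polyunsaturated fatty acids, was at 300 CPM in siHsc70 against 271 CPM in siSCR, 1.11-fold higher (1.06 to 1.15). Its deposited TPM was 217 in siHsc70 and 221 in siSCR, a lower value in siHsc70. Part of that difference between scales belongs to this gene: dividing its count by its FPKM gave a value in siHsc70 that was exceeded 1.03-fold in siSCR, where the median gene and 7 of the other measured members had 1.05-fold and Elovl1 1.06-fold. Whether another mix of Elovl5 transcripts underlies this was not tested. Elovl1, an elongase of the saturated and monounsaturated very long chains found in sphingolipids, was at 106 CPM in siHsc70 against 118 CPM in siSCR, 1.11-fold lower (1.05 to 1.19). The TPM of Elovl5 relative to Elovl1 was 1.56 in siHsc70 and 1.30 in siSCR.

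Elovl7, which also extends saturated and monounsaturated chains, had a count of 29 in siHsc70 and 81 in siSCR. It was at 1.61 CPM in siHsc70 against 4.21 CPM in siSCR, 2.61-fold lower with a wide counting interval (1.69 to 4.14). On the log2(CPM + 1) scale its difference was -0.996, just short of the 2-fold rule, and 5.19% of measured genes were as low. It passed that rule with a pseudocount of 0.1 (-1.33), total-count scaling (-1.01), DESeq2 size factors (-1.01), the deposited TPM (-1.31) and the deposited FPKM (-1.06). Relative to Elovl1 it was 2.34-fold lower in siHsc70 (1.53 to 3.60).

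Elovl6, the elongase that turns palmitate into stearate, was almost absent from both libraries. Its estimated count was 0 in siHsc70, where the upper limit for an observed 0, taken as 3 counts per library, is 0.167 CPM. In siSCR it was 7.72, or 0.416 CPM after rounding. The exact interval of the ratio, which also covers the counting error of siSCR, reaches down to a level only 1.60-fold lower in siHsc70. The count in siSCR is not whole, and whether reads of Elovl6 were assigned to other rows was not tested.

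**Figure D3:**
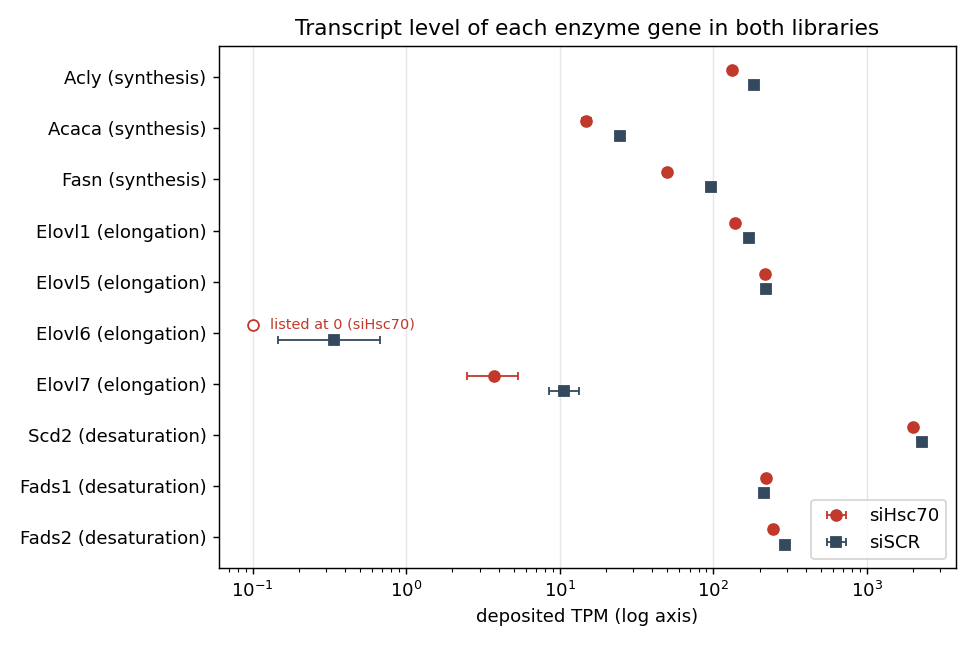
Deposited TPM of the 10 genes (log axis) in siHsc70 (red circles) and siSCR (dark squares), with 95% exact Poisson intervals that cover counting error only. Scd2 lies far to the right at 2000 TPM in siHsc70 and 2266 TPM in siSCR, Elovl7 and Elovl6 lie far to the left, and the open circle marks Elovl6, listed at 0 in siHsc70.

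Levels of different genes were compared per length, in the deposited TPM. In siHsc70 the order was Scd2 at 2000, Fads2 at 244, Fads1 at 221, Elovl5 at 217, Elovl1 at 139, Acly at 131, Fasn at 50.2, Acaca at 14.9 and Elovl7 at 3.72 TPM, with Elovl6 listed at 0. In siSCR it was Scd2 at 2266, Fads2 at 292, Elovl5 at 221, Fads1 at 213, Acly at 184, Elovl1 at 170, Fasn at 96.4, Acaca at 24.8, Elovl7 at 10.7 and Elovl6 at 0.34 TPM. The pairs Fads1 with Elovl5 and Elovl1 with Acly stood in the opposite order in siHsc70 and siSCR. The counting intervals of Fads1 and Elovl5 overlapped in both libraries (216 to 226 and 212 to 223 TPM in siHsc70; 208 to 218 and 215 to 227 TPM in siSCR). Those of Elovl1 and Acly overlapped in siHsc70 (133 to 146 and 128 to 135 TPM) and not in siSCR (163 to 177 and 180 to 189 TPM).

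Within the elongase family, summed over Elovl1, Elovl2, Elovl4, Elovl5, Elovl6 and Elovl7, Elovl5 made up 52.3% of the TPM in siHsc70 and 47.3% in siSCR. Elovl1 made up 33.5% in siHsc70 and 36.4% in siSCR, and Elovl7 0.895% in siHsc70 and 2.29% in siSCR. Summed counts of the family were at 490 CPM in siHsc70 and 480 CPM in siSCR, a ratio of 1.02 whose counting interval (0.992 to 1.05) includes 1. In TPM the family's sum was lower in siHsc70, with a ratio of 0.888, but on that scale the median of all measured genes was itself -0.13 (log2). Among Fads1, Fads2, Fads3 and Fads6, Fads2 made up 43.6% of the TPM in siHsc70 and 51.0% in siSCR, and Fads3 16.0% in siHsc70 and 11.0% in siSCR.

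**Figure D4:**
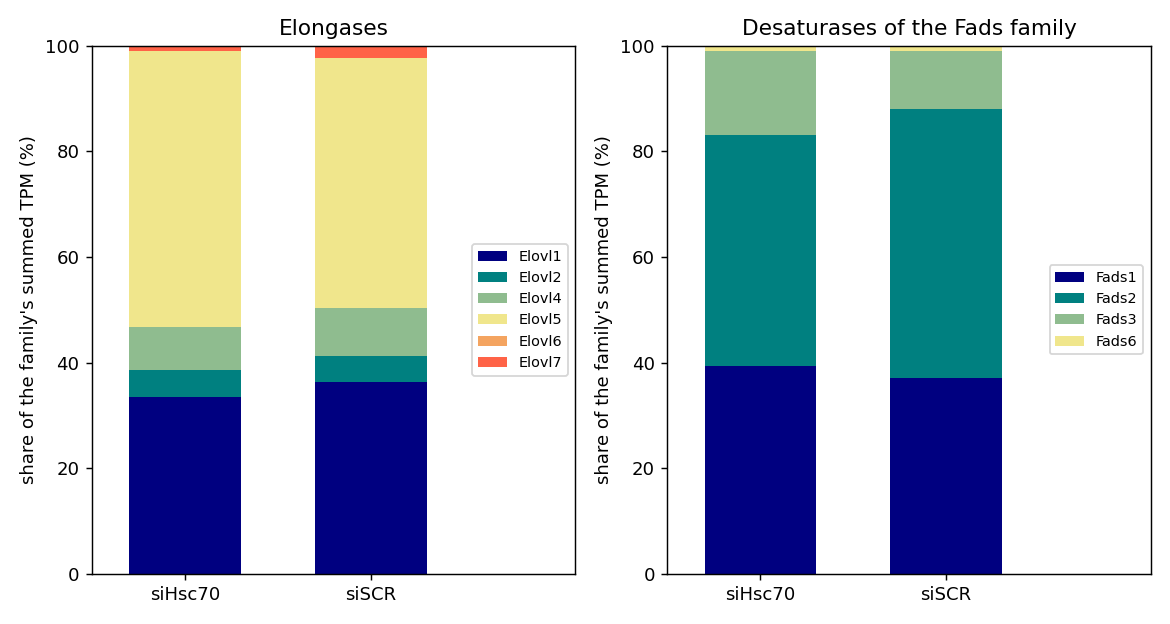
Stacked bars give each gene's share (%) of the summed TPM of the elongase family (left panel) and of the Fads family (right panel), in siHsc70 and siSCR, 1 library each. The Elovl5 segment is larger in siHsc70 (52.3% against 47.3%) and the Fads2 segment smaller (43.6% against 51.0%).

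RefSeq windows (GRCr8), 250 bases before to 50 bases after an annotated start, were used for 7 of the 10 genes. These were Acly, Scd2, Elovl1, Elovl5, Elovl7, Fads1 and Fads2, and the Elovl7 window may hold no promoter, as described below. Windows of Fasn, Acaca and Elovl6 were not analysed here. The windows were searched on both strands for the CCAAT box bound by NF-Y, a factor known to act with SREBPs at lipogenic promoters, and for the GC box GGGCGG bound by SP1. CCAAT occurred in 4 of the 7 (Acly, Scd2, Elovl5 and Fads1) and in 37.5% of all 33469 windows. GGGCGG occurred in 3 (Acly, Fads1 and Fads2) and in 33.1% of all windows. The 4 windows with CCAAT are shown because they belong to genes that differed in opposite directions, Acly being lower in siHsc70 and Fads1 higher, and Scd2 to the most abundant member. The 250 bases before the start are printed 5′ to 3′ on the gene's strand, for Acly chr10:85963632-85963881 (minus strand), Scd2 chr1:253118127-253118376 (plus), Elovl5 chr8:87670914-87671163 (plus) and Fads1 chr1:216252442-216252691 (plus), with capitals for CCAAT and GGGCGG or their reverse complements.
Acly: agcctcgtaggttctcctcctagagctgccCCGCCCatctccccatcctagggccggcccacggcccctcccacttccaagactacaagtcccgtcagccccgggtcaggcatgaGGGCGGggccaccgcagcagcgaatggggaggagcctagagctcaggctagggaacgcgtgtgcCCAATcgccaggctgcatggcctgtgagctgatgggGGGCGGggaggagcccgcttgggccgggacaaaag
Scd2: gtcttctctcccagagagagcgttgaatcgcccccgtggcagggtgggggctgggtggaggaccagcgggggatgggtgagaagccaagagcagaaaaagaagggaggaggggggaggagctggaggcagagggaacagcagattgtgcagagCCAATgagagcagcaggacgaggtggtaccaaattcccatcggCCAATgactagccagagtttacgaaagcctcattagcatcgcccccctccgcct
Elovl5: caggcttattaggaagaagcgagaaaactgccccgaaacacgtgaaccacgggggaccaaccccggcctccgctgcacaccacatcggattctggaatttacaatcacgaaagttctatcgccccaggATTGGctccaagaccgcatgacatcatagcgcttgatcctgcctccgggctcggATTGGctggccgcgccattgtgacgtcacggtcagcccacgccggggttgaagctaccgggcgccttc
Fads1: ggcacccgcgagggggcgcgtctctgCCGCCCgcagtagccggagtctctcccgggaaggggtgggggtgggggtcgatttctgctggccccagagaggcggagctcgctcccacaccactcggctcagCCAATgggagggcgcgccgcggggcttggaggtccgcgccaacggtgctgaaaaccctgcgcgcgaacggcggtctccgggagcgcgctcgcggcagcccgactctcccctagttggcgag

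Acly had 1 CCAAT box, beginning 71 bases before the start, and 3 GC boxes. Scd2 had 2 CCAAT boxes, beginning 97 and 54 bases before the start. Elovl5 had 2 on the opposite strand, 122 and 68 bases before it, and Fads1 had 1, 121 bases before it. Of these genes, Acly was lower in siHsc70, Fads1 and Elovl5 were higher in CPM, and Scd2 was nearly level. Whether the box bears on these differences was not tested, and Fasn and Acaca were not searched. The E-box CACGTG was found in the Elovl5 window (6.42% of all windows). Of the SOX-type letters ACAAAG and ACAATG, the first occurred in Elovl1 (18.8% of all windows) and the second in Elovl5 and Scd2 (13.2%). The starts used for Elovl7 and Elovl1 lie 40167 and 1374 bases inside the annotated gene span, and that of Acly 974 bases inside, so other starts of these genes were not searched.

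The other enzymes that supply or share steps with these genes were mostly level or higher in siHsc70. Of 21 measured genes in that list, 0 passed the 2-fold rule. At least 1.5-fold higher were 4, against 9.65% of all measured genes, and 0 were at least 1.5-fold lower, against 12%. The median was 0.15, or 0.010 with the deposited TPM. Me1, the malic enzyme that supplies NADPH for fatty acid synthesis, was at 427 CPM in siHsc70 against 243 CPM in siSCR, 1.76-fold higher (1.70 to 1.83). Hacd4, a dehydratase of the elongation cycle, was low, at 1.95 CPM in siHsc70 against 0.832 CPM in siSCR (2.34-fold higher, 1.26 to 4.53), and the remaining one, named after its values were seen, was Thrsp, at 1.45 CPM in siHsc70 and 0.624 CPM in siSCR. Acss2, which makes acetyl-CoA from acetate, was named after its value was seen. At 59.3 CPM in siHsc70 against 88.8 CPM in siSCR it was 1.497-fold lower (1.39 to 1.62), close to Acaca.

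Genes of fatty acid activation and binding were split. Of 15 measured, 1 passed the 2-fold rule, downwards, against 5.14% of all measured genes. The median was -0.053, or 0.0094 with upper-quartile scaling. Acsl3, a long-chain acyl-CoA synthetase, was at 128 CPM in siHsc70 against 371 CPM in siSCR, 2.89-fold lower (2.76 to 3.03). Acsl1, another synthetase, was at 32.5 CPM in siHsc70 against 60.9 CPM in siSCR, 1.87-fold lower (1.69 to 2.07). Slc27a1, a fatty acid transport protein, was at 184 CPM in siHsc70 against 108 CPM in siSCR, 1.71-fold higher (1.62 to 1.81).

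Among 21 measured regulators of lipogenic genes, the 2-fold rule was passed by 2, both lower, against 5.14% of all measured genes. The median was -0.14. Srebf1, the SREBP gene most tied to fatty acid synthesis, was at 145 CPM in siHsc70 against 119 CPM in siSCR, 1.21-fold higher (1.15 to 1.28). A difference as high was found in 24.4% of measured genes. Whether SREBPs bear on the lower levels of Fasn, Acaca and Acly was not tested. Srebf2, the SREBP gene most tied to cholesterol synthesis, was at 232 CPM in siHsc70 against 291 CPM in siSCR, 1.25-fold lower (1.20 to 1.31). Insig1, which retains SREBPs in the endoplasmic reticulum and is itself an SREBP target, was at 93.8 CPM in siHsc70 against 178 CPM in siSCR, 1.90-fold lower (1.79 to 2.02). The 2 past the 2-fold rule were Thra and Rictor. Thra, a T3 receptor gene, was at 62.2 CPM in siHsc70 against 156 CPM in siSCR (2.51-fold lower, 2.34 to 2.69). Rictor, of the mTORC2 kinase complex, was at 39.8 CPM in siHsc70 against 97.0 CPM in siSCR (2.44-fold lower, 2.23 to 2.66). At least 1.5-fold lower were 4 of the 21, against 12% of all measured genes, and 0 were at least 1.5-fold higher, against 9.65%. Besides Insig1, Thra and Rictor these included the other T3 receptor gene, Thrb, named after its value was seen. Thrb was at 14.1 CPM in siHsc70 against 24.9 CPM in siSCR (1.77-fold lower, 1.52 to 2.07).

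Fatty acid oxidation genes had a median of 0.17, or 0.034 with the deposited TPM. Against 5.14% of all measured genes, 1 of these 21 passed the 2-fold rule downwards, and none upwards. That gene was Ehhadh, of peroxisomal oxidation, at 6.78 CPM in siHsc70 against 33.5 CPM in siSCR (4.93-fold lower, 4.06 to 6.04). Cpt1b, a carnitine palmitoyltransferase, was at 1.67 CPM in siHsc70 against 3.74 CPM in siSCR (2.24-fold lower, 1.45 to 3.56). Etfa, which passes electrons from acyl-CoA dehydrogenases, was at 142 CPM in siHsc70 against 91.1 CPM in siSCR (1.56-fold higher, 1.46 to 1.65). In the 8 genes of mitochondrial fatty acid synthesis, 0 passed either rule of size, and the median of 0.12 was -0.084 with the deposited TPM. Mecr, a reductase of that pathway, was furthest from 0, at 7.23 CPM in siHsc70 against 10.8 CPM in siSCR.

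Genes that put very long chains into myelin lipids held the lowest single value of the pathway lists, that of Fa2h. The 2-fold rule was passed by 4 of 10, all lower, against 5.14% of all measured genes, and the list's median was -0.37. Fa2h, the fatty acid hydroxylase, was at 6.84 CPM in siHsc70 against 62.3 CPM in siSCR. Ugt8, which makes galactosylceramide, was at 46.0 CPM in siHsc70 against 320 CPM in siSCR, and Gal3st1, which sulfates that lipid, at 15.3 CPM in siHsc70 against 71.4 CPM in siSCR. Abca2, a lipid transporter named after its value was seen, was at 178 CPM in siHsc70 against 358 CPM in siSCR. Cers2, the ceramide synthase that takes the chains ELOVL1 makes, was likewise named afterwards and was at 171 CPM in siHsc70 and 189 CPM in siSCR, a difference of -0.14 beside -0.15 for Elovl1.

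**Figure D5:**
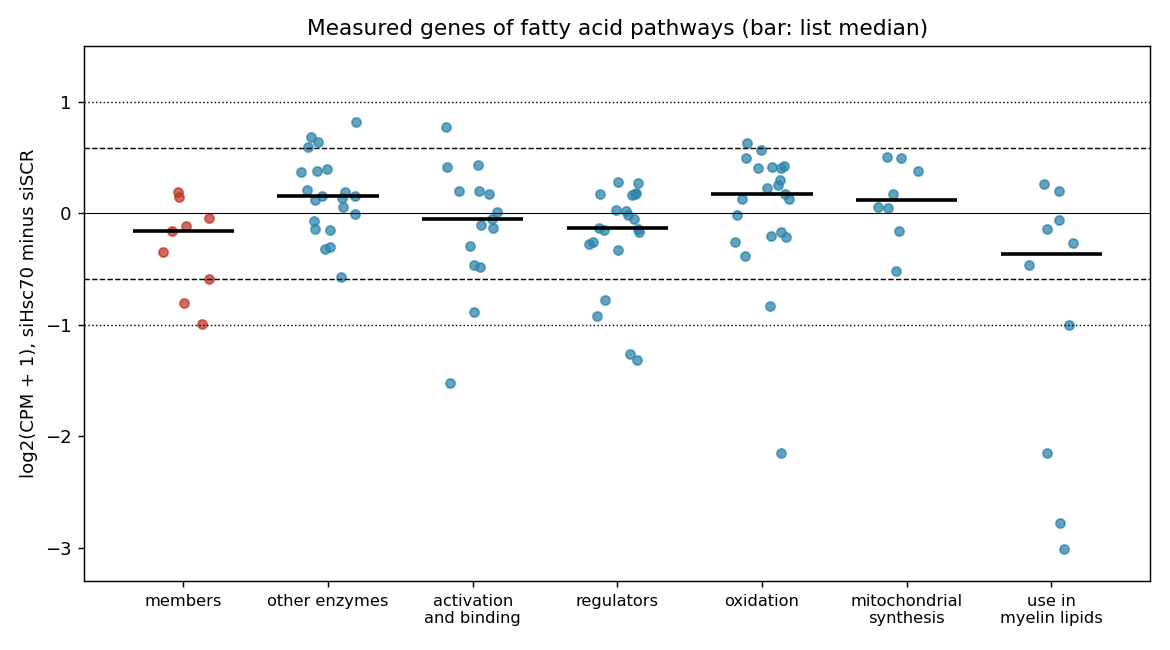
Each point is 1 measured gene, by its difference in log2(CPM + 1), siHsc70 minus siSCR (y), in the 9 measured members (red) and the 6 other lists (blue), with a black bar at each list's median. Dashed lines mark 1.5-fold and dotted lines 2-fold, and the members range from -0.996 to 0.19 while the list of use in myelin lipids reaches -3.01.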

How the data were processed

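RNA-seq was deposited as 1 table with 6 value columns for the 2 libraries. The authors' estimated counts per gene are not normalised, and 26.7% of the siHsc70 values and 26.5% of the siSCR values are not whole. The deposited TPM and FPKM are the authors' values scaled for length and depth, per the file headers. No aligner or annotation is given in the sources used here. A mouse build, mm39, is named in the submitters' processing notes, although the table carries rat gene IDs, and all 10 members' IDs carry the same symbols in RefSeq (GRCr8). Coordinates are therefore given for RefSeq windows only.

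Counts were rounded and scaled with TMM factors (edgeR 4.0.16, R 4.3.3), 0.992 for siHsc70 and 1.01 for siSCR. Genes averaging 1 CPM or more were kept. Ratios carry exact intervals (scipy 1.17.1). Scaling and intervals were tested on simulated data. The labels do not say how the cultures relate, and with 1 library per group no p-value is given. The members and lists were chosen with earlier results of these data known. Text names the 10 members, Hspa8, Srebf1, Srebf2 and, per pathway list, up to 3 genes per direction past 1.5-fold, or the furthest from 0 where none passed, and says where others are named. Alternatives were other pseudocounts, minimum means, scalings (DESeq2 1.42.0 size factors among them), TPM, FPKM and the size rule. Of the marker genes, Cx3cr1, C1qa, Itgam and Cldn5 were not found by these symbols, nor was Elovl3 of the enzyme list, and they were not analysed here.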

Additional observations from a re-analysis of the deposited data

How the results depend on the processing

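Under 6 scalings, Fasn, Acaca, Acly, Elovl7, Elovl1 and Fads2 were lower in siHsc70 and Fads1 higher in each. Scd2 was lower under 5 of them (0.023 with upper-quartile scaling) and Elovl5 higher under 5 (-0.026 with the deposited TPM). The pseudocount and the minimum level cannot turn a gene's sign, and Elovl7 is not measured at a minimum of 5 CPM. At the 2-fold rule the number of lower members was 1 in place of 0, Elovl7, with a pseudocount of 0.1, total-count scaling, DESeq2 size factors, the deposited TPM and the deposited FPKM, and 3 with the 1.5-fold rule. At the 1.5-fold rule it was 1 in place of 3, Fasn, with a pseudocount of 5. The members' median of -0.15 was -0.25 without a minimum level, which adds Elovl6, and -0.29 with the deposited TPM, where the median of all genes was -0.13. The number of higher genes in the 6 other lists was 2 in place of 0 with a pseudocount of 0.1 and 6 with the 1.5-fold rule. Summing the Scd2, Scd, Scd3 and Scd4 rows, chosen after seeing the data, gave -0.026 in place of -0.040. No paired analysis was possible because each group has 1 library, and for the same reason no library could be left out. Depth limits Elovl7 (29 counts in siHsc70, 81 in siSCR) and Elovl6 most.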
